A study of Arabidopsis thaliana with 8 samples.

Results

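Gene expression was compared between sdg8 mutant seedlings and wild type across all genes, with 2 arrays of each, which are 4 of the 8 arrays of the study. The sdg8 mutant and the Col wild type, an Arabidopsis thaliana accession, were both collected as the aerial part of seedlings aged 6 days in long days, and the labels add no transgene or treatment to either. The sources used here do not give the sdg8 allele, how many plants made a sample, or where the SDG8 probe sits relative to the lesion. The other 4 arrays, 2 of sdg8 sdg26 double mutants and 2 of sdg26 mutants of the same age and tissue, contributed to the estimate of spread and gave a second measurement of the sdg8 difference on separate arrays. Each array carried Cy3-labelled cRNA of 1 sample in 1 colour. Genes were kept where a probe was well above background on both arrays of sdg8 or on both arrays of wild type, which left 19341 protein-coding genes for the test.

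SDG8 is a SET-domain histone methyltransferase that places methyl groups on lysine 36 of histone H3 within transcribed genes, a mark that accompanies active transcription. In Arabidopsis it is best known for keeping FLC active, the MADS-box repressor of flowering that holds back the floral integrator gene FT, and sdg8 plants flower early. The enzyme has also been linked to carotenoid synthesis through CRTISO, to immune receptor genes and to brassinosteroid responses.

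A level is given here on a log2 scale relative to the 75th percentile of the spots of an array other than controls, so that 0 is the signal of a fairly bright spot, and a difference is sdg8 minus wild type on that log2 scale with its standard error (SE). The replicates correlated at 0.989 in sdg8 and at 0.987 in wild type across genes. Between 71.9% and 72.7% of the probes were well above background on the sdg8 arrays, against 72.2% to 74.9% on the wild-type arrays. Both sdg8 arrays lay on 1 slide and the 2 wild-type arrays on 2 other slides, so slide and genotype cannot be told apart in this comparison. All 28 genes of the photosystems, antennae and Rubisco, the markers of green tissue, were measured, and none was called. Their summed level was 9.42 and 9.49 on the sdg8 arrays and 9.41 and 9.81 on the wild-type arrays. Seed storage and maturation genes stood higher on wild-type replicate 1 than elsewhere, with a summed level of 0.02 and 1.94 on the sdg8 arrays against 4.28 and 1.60 on the wild-type arrays, and their part in the results was not tested.

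SDG8 itself had levels of -3.59 and -3.22 on the sdg8 arrays, against -0.63 and -0.36 on the wild-type arrays. The groups lay far apart, and the mutant transcript was still well above background. The difference was -2.91 ± 0.18 (SE, n = 2 each), 7.50-fold lower in sdg8 (limma, adjusted p = 0.000615). SDG26, the other histone methyltransferase gene mutated in the study, had levels of -1.07 and -1.0 in sdg8, against -1.09 and -1.04 in wild type, a difference of 0.03 ± 0.32 (adjusted p = 0.979).

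The floral repressors of the FLC clade fell in sdg8, led by FLC, which was at or near background in the mutant. FLC had levels of -7.10 and -6.52 on the sdg8 arrays, against -1.33 and -1.23 on the wild-type arrays. Neither sdg8 array read it well above background, so only a bound can be given, and FLC was at least 29.8-fold lower in sdg8 (adjusted p = 0.00186). Such bounds set the measured mean of the brighter genotype against, on each array of the dimmer one, the higher of its own signal and the weakest signal called well above background. An adjusted p beside a bound, here and below, tests the difference of the levels themselves, with the values below background included. It does not test the bound. FLM, a close FLC relative that delays flowering at cool ambient temperature, had levels of -2.77 and -2.79 in sdg8, against 0.49 and 0.53 in wild type, and was 9.77-fold lower (difference -3.29 ± 0.19, adjusted p = 0.000469). MAF4 and MAF5 are neighbouring members of the same clade. MAF4 had levels of -2.71 and -2.63 in sdg8, against -0.69 and -0.52 in wild type (difference -2.07 ± 0.26, adjusted p = 0.00943). MAF5 had levels of -3.55 and -3.73 in sdg8, against -2.13 and -2.47 in wild type (difference -1.34 ± 0.16, adjusted p = 0.00753), and its other kept probe differed by -3.59.

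Not every member of the clade moved. MAF2 had levels of 0.74 and 0.80 in sdg8, against 0.77 and 0.71 in wild type, and its difference of 0.03 ± 0.13 had a 95% interval from -0.29 to 0.34. MAF3, at -0.87 and -0.74 in sdg8 against -0.22 and -0.27 in wild type, differed by -0.56 ± 0.13 and missed the threshold (adjusted p = 0.0817). SVP, a repressor outside the clade that partners FLC, differed by 0.01 ± 0.19 (95% interval -0.44 to 0.45).

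FT, the mobile signal that triggers flowering and is repressed by FLC, rose. Its levels were -3.52 and -3.44 in sdg8, against -5.26 and -5.42 in wild type, a 3.64-fold rise (difference 1.86 ± 0.19, adjusted p = 0.00382). Both sdg8 arrays lay above both wild-type arrays, and a second FT probe gave a difference of 1.69. AGL42, a relative of SOC1 with a part in the floral transition, had levels of -5.72 and -5.98 in sdg8, against -8.40 and -7.59 in wild type, where 1 of 2 arrays was well above background (difference 2.14 ± 0.35, adjusted p = 0.0229). SOC1, a direct FLC target and floral integrator, had levels of 1.79 and 2.35 in sdg8, against 1.22 and 1.76 in wild type, so the pairs were parted by very little and the difference of 0.58 ± 0.24 was not called (adjusted p = 0.287). ATC, a repressor of the TFL1 family, was 2.02-fold higher in sdg8 (difference 1.02 ± 0.18, adjusted p = 0.0277). Over the gene lists this made 1 higher and 4 lower of 14 tested floral repressors, and 2 higher and 0 lower of 16 tested activators and meristem identity genes. Across all genes 3.29% were called, 0.951% higher and 2.34% lower.

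The calls of SDG8, FLC, FLM and FT held without any 1 of the 8 arrays. That of MAF5 was lost without sdg8 replicate 2 (adjusted p = 0.0582), that of MAF4 without either sdg8 array or without wild-type replicate 2 (up to 0.0691), that of AGL42 without either sdg8 array or without wild-type replicate 1 (up to 0.113), and that of ATC without any 1 of the 4 sdg8 and wild-type arrays (up to 0.139).

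**Figure D1:**
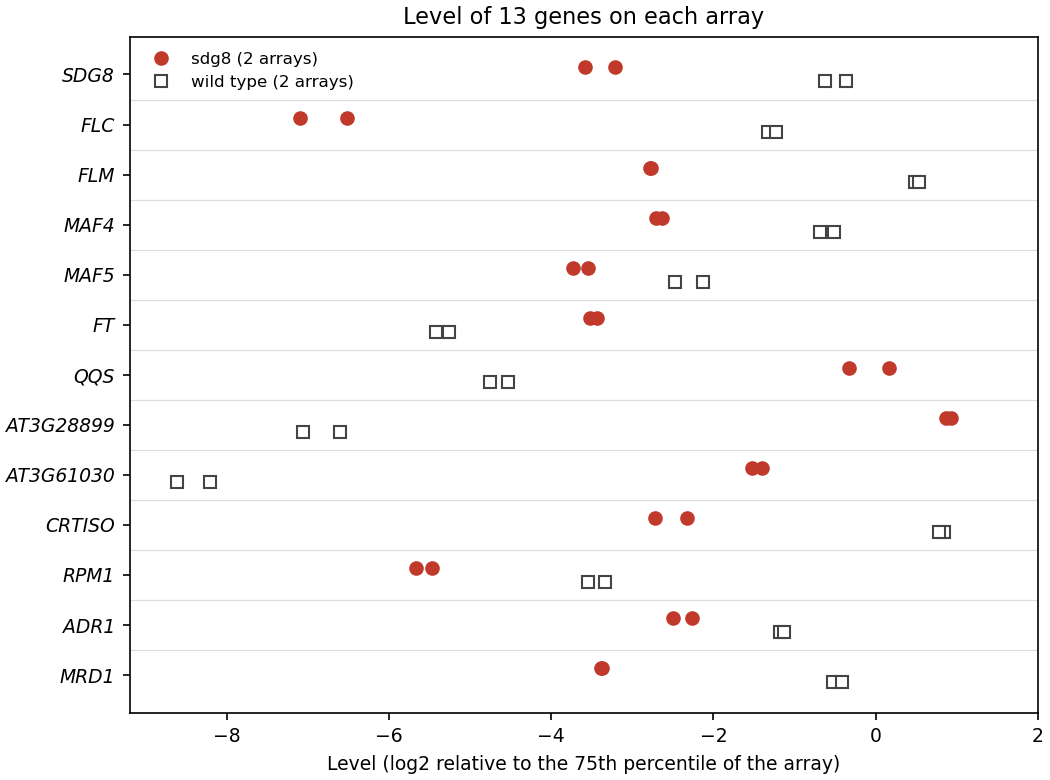
Level of 13 genes on each array, in log2 relative to the 75th percentile of the array, with the 2 sdg8 arrays as filled circles and the 2 wild-type arrays as open squares below them. For each of these genes the sdg8 pair and the wild-type pair are well separated, as for FLC at -7.10 and -6.52 in sdg8 against -1.33 and -1.23 in wild type, or FT at -3.52 and -3.44 in sdg8 against -5.26 and -5.42 in wild type.

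Across the 19341 genes, more fell than rose in sdg8. In limma with Benjamini-Hochberg adjustment, 637 genes were called at an adjusted p below 0.05, 184 higher and 453 lower, and 391 of them differed at least 2-fold, 118 higher and 273 lower. At an unadjusted p below 0.05 stood 3261 genes. The median difference was 1.19 among the genes called higher and -1.11 among those called lower, against -0.01 over all tested genes. For 636 of the 637 the 2 sdg8 arrays lay beyond the 2 wild-type arrays, but so they did for 21.9% (above) and 25.8% (below) of all genes. The table used for names gave no symbol other than the locus identifier for 67.5% of the called genes and 55.6% of the tested ones. The called genes were spread over the 5 chromosomes, with 2.22% to 2.54% of the tested genes of a chromosome called lower.

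The number of calls rested on single arrays. It was 196 without sdg8 replicate 1, 188 without sdg8 replicate 2, 323 without wild-type replicate 1 and 207 without wild-type replicate 2, and 110 genes, 28 higher and 82 lower, stayed called whichever 1 of the 8 arrays was left out. With normexp correction on the local background, which reached 229880 units beside single spots of sdg26 replicate 2, 23118 on wild-type replicate 1 and 5363 on sdg8 replicate 1, limma called 0 genes, with 563 at an unadjusted p below 0.05. Under that correction 8 of the genes described as higher in sdg8 had a difference below 0, AGL42, TRFL3, AGO9, RSL1, AT3G26800, AT4G12530, AT4G12735 and AT5G37280. The difference of FT shrank to 0.18 under it, while that of FLM was -2.88 and that of SDG8 -2.42.

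**Figure D2:**
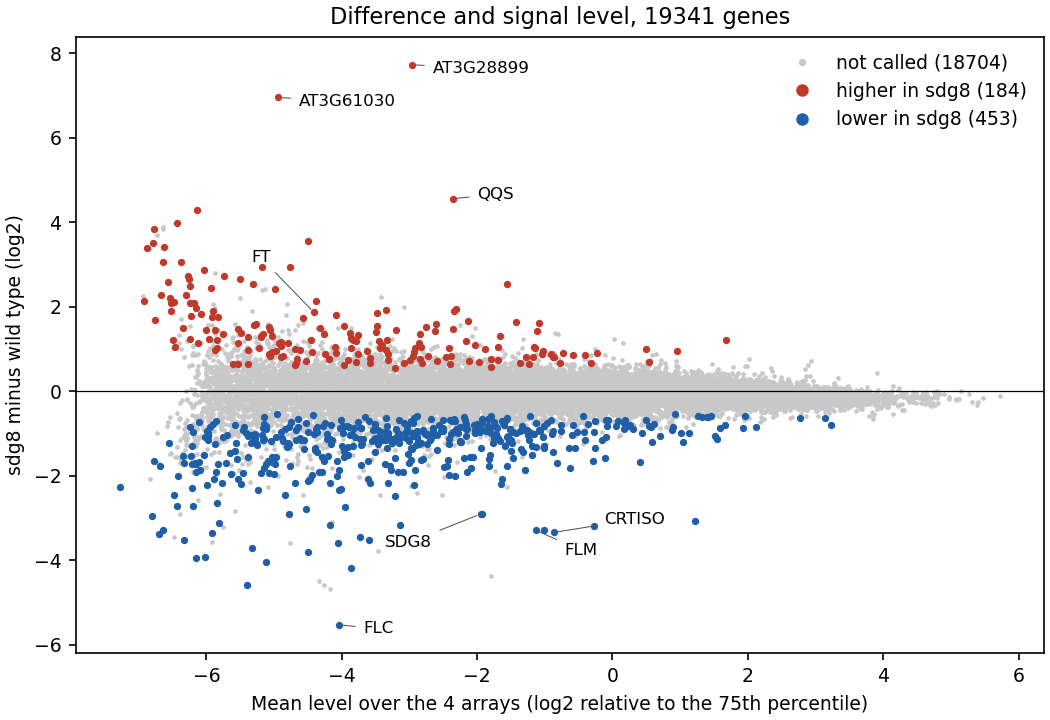
Difference between sdg8 and wild type (log2, vertical axis) against the mean level over the 4 arrays (log2, horizontal axis) for 19341 genes, with the 184 genes called higher in red and the 453 called lower in blue. The called genes lie mostly at low and middle levels, the highest points are AT3G28899, AT3G61030 and QQS, and the lowest is FLC.

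Calls were concentrated among dim genes. The tested genes were split into 3 equal classes by mean level. In the dim class 7.49% were called, 155 higher and 328 lower. The middle class had 1.83%, with 25 higher and 93 lower. In the bright class the share was 0.558%, with 4 higher and 32 lower. Falls outnumbered rises in each class. Of the called genes, 495 were well above background on all 4 arrays, 34 were so in part, 40 were higher with neither wild-type array well above background, and 68 were lower with neither sdg8 array well above background. The last group, which holds FLC, is made of transcripts measured in wild type for which no signal clear of background remained in the mutant. Genes of the last 2 groups passed the filter only through the genotype where they were higher. Their direction was thus set by the filter, and the number of such genes among all tested genes is not given here. Among the 495 genes well above background on all 4 arrays, 126 were higher and 369 lower.

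**Figure D3:**
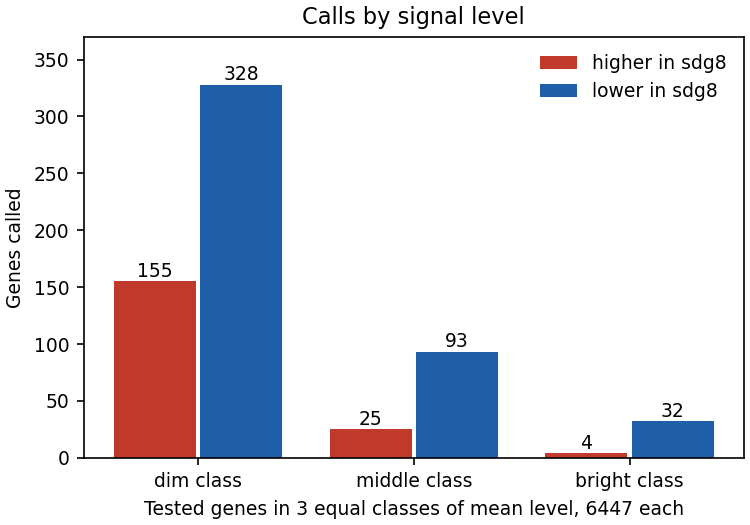
Number of genes called higher (red, left) and lower (blue, right) in sdg8 within 3 classes of the tested genes by mean level, 6447 genes each. The counts are 155 and 328 in the dim class, 25 and 93 in the middle class, and 4 and 32 in the bright class.

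The largest rises were of genes with almost no signal in wild type. AT3G28899 had levels of 0.93 and 0.87 in sdg8, against -6.60 and -7.06 in wild type, where neither array was well above background. It was at least 150-fold higher in sdg8 (adjusted p = 9.16e-06), which placed it among fairly bright genes. AT3G61030, at -1.53 and -1.40 in sdg8 against -8.62 and -8.21 in wild type, was at least 32.1-fold higher (adjusted p = 7.18e-06). The tables used here give neither gene a name. Only some of the further genes below background in wild type are named in this paragraph. Among them, AT3G26742 was at least 6.74-fold higher, AT5G37280 at least 5.56-fold and AT4G12735 at least 4.25-fold. TRFL3, named for its likeness to telomere repeat binding factors, was at least 5.37-fold higher, and AGO9, an Argonaute protein that binds small RNAs, at least 2.40-fold higher. All 7 kept their call without any 1 array.

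Among genes measured in both genotypes, QQS rose most. QQS is a gene found in Arabidopsis thaliana without known relatives, and its product affects how carbon is shared between starch and protein. Its levels were -0.33 and 0.16 in sdg8, against -4.75 and -4.53 in wild type, a 23.5-fold rise (difference 4.56 ± 0.20, adjusted p = 0.000169). Of the 15 tested starch genes it was the only one called, and the other 14 differed by -0.31 to 0.54. AT5G09570 had levels of -0.30 and -0.29 in sdg8, against -3.23 and -2.40 in wild type, and was 5.76-fold higher (adjusted p = 0.00357). AT5G24640 rose 3.84-fold, AT2G18193 3.70-fold and AT5G40800 3.49-fold. The neighbours AT1G59930 and AT1G59920 rose 3.81-fold and 3.60-fold. That the sdg8 and wild-type pairs did not overlap was a condition for naming these genes and adds no support. All of them kept their calls without any 1 array. CYP89A9, a cytochrome P450 that acts in chlorophyll breakdown, rose 3.13-fold (difference 1.65 ± 0.22, adjusted p = 0.0102), a call that did not hold without wild-type replicate 1 (adjusted p = 0.0588).

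Falls to background came in several genes beside FLC. AT3G26930 had levels of -5.75 and -5.95 in sdg8, against -2.18 and -2.34 in wild type, and was at least 12.1-fold lower (adjusted p = 0.00176). AT1G62085, at -6.35 and -6.45 in sdg8 against -2.61 and -2.59 in wild type, was at least 12-fold lower (adjusted p = 0.00493). AT3G52680 was at least 8.47-fold lower, AT4G19865 at least 8.43-fold and AT3G26922 at least 6.54-fold. All 5 were absent from the clear signal of both sdg8 arrays, measured on both wild-type arrays, and called whichever array was left out.

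Of the genes measured on all 4 arrays, AT4G10600 fell most, with levels of -5.33 and -5.39 in sdg8 against -1.85 and -1.84 in wild type, 11.4-fold lower (difference -3.51 ± 0.14, adjusted p = 8.69e-05). CRTISO, the carotenoid isomerase that turns prolycopene into lycopene, came next. Its levels were -2.73 and -2.33 in sdg8, against 0.84 and 0.78 in wild type, 10.1-fold lower (difference -3.34 ± 0.40, adjusted p = 0.00736), and its second probe differed by -3.38. The call of CRTISO was lost without sdg8 replicate 1 or wild-type replicate 2 (adjusted p up to 0.0549). AT5G05040 and AT5G05060, which lie side by side, fell 9.74-fold and 9.13-fold. AT1G67620 was 8.92-fold lower, at -4.66 and -4.78 in sdg8 against -1.48 and -1.65 in wild type. MRD1, a gene named for its lowered transcript in a methionine overproducing mutant, fell 7.53-fold, AT5G37400 6.63-fold and AT2G12190 5.09-fold.

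Of the other carotenoid and apocarotenoid genes none was called. CRTISO was 1 of 18 tested, and the median difference of the 18 was -0.16. D27, which makes the first dedicated precursor of strigolactones, had levels of -0.28 and -0.22 in sdg8, against 0.27 and 0.35 in wild type, and just missed the threshold (difference -0.56 ± 0.12, adjusted p = 0.0563). NCED3, which starts abscisic acid synthesis under stress, differed by 0.76 (adjusted p = 0.295).

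Genes listed as immune receptors of the nucleotide-binding, leucine-rich repeat class (NLRs) formed the list with the most calls in 1 direction. Whether each member carries every domain of the class was not checked. Of 18 tested NLRs that carry a name, 6 were lower and 0 higher, where 2.34% of all genes were called lower and 0.951% higher. The median difference was -0.46, against -0.01 over all genes. RPM1, which recognises bacterial effectors through their action on the guarded protein RIN4, had levels of -5.67 and -5.47 in sdg8, against -3.55 and -3.33 in wild type, 4.37-fold lower (difference -2.13 ± 0.15, adjusted p = 0.0013). ADR1, a helper NLR that works with other receptors, had levels of -2.26 and -2.49 in sdg8, against -1.18 and -1.13 in wild type, 2.34-fold lower (adjusted p = 0.00544). The calls of RPM1 and ADR1 held without any 1 array. RRS1, an NLR with a WRKY domain, fell 2.28-fold, and its call was lost without sdg8 replicate 1 (adjusted p = 0.0546). LAZ5 fell 3.55-fold, with the call lost without sdg8 replicate 1 or wild-type replicate 2 (up to 0.0607). CHS1 and CHS3, known from chilling-sensitive mutants, fell 4.23-fold and 3.22-fold, with both calls lost without any 1 of the 4 arrays (up to 0.138). The salicylate defence list, which holds signalling partners and targets of these receptors, had 0 of 16 called, where 3.29% of all genes were, and 9 of the 16 were lower on both sdg8 arrays than on both wild-type arrays, as were 25.8% of all genes. EDS1, a signalling partner of many NLRs, differed by -0.73 ± 0.17 (adjusted p = 0.0668).

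Cytochrome P450 genes, matched by symbol and synonym, held 4 higher and 10 lower of 147 tested, where 0.951% of all genes were called higher and 2.34% lower. The CYP71B subfamily, singled out after its values were seen, held 5 of these 10 falls and 1 of the rises among 26 tested. CYP71B36 had levels of -4.52 and -4.38 in sdg8, against -2.10 and -1.82 in wild type, 5.59-fold lower (adjusted p = 0.00176), and CYP71B38, at -5.75 and -5.26 in sdg8 against -3.46 and -3.42 in wild type, was 4.20-fold lower (adjusted p = 0.00335). Both calls held without any 1 array. CYP71B5 fell 2.05-fold, with its call lost without sdg8 replicate 1 (adjusted p = 0.053), CYP71B30P 2.34-fold, with its call lost without any 1 of the 4 arrays (up to 0.104), and CYP71B35 1.87-fold, with its call lost without any 1 of the 8 arrays (up to 0.194). Probes for such similar genes may share signal, which was not tested.

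In iron uptake, IRT1, the main root iron transporter, had levels of -4.99 and -5.17 in sdg8, against -3.50 and -3.77 in wild type (difference -1.45 ± 0.17, adjusted p = 0.00736), and the call was lost without sdg8 replicate 2 (adjusted p = 0.0564). The other 12 tested genes of the list were not called. The list median was -0.61, but 2 of the 13 genes were lower on both sdg8 arrays than on both wild-type arrays. The summed level of the list was 4.11 and 3.54 on the sdg8 arrays, against 4.64 and 3.64 on the wild-type arrays, and the part of the high wild-type replicate 1 was not tested. In the brassinosteroid list 1 of 22 was called, IBH1, which restrains cell elongation, at -0.68 and -0.59 in sdg8 against -1.70 and -1.61 in wild type (difference 1.02 ± 0.15, adjusted p = 0.0139). Its call was lost without any 1 of the 4 sdg8 and wild-type arrays (up to 0.0908). Synthesis genes such as BR6OX1, at 0.72 (adjusted p = 0.135), stayed below the threshold.

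Many lists held no call, and with 3.29% of all genes called, lists of these sizes would hold less than 1 call each at the share of all genes. These were the 22 tested genes for other histone methyltransferases, readers and demethylases (median difference 0.04), the 19 of the FRIGIDA, PAF1 and SWR1 complexes and the autonomous pathway (0.05), the 21 of the circadian clock (0.03), 26 for jasmonate (-0.07), 20 for auxin (-0.06), 17 for gibberellin (0.02), 13 for cytokinin (0.05), 12 of the cell cycle (0.10), 15 for cold and abscisic acid (-0.06), 7 for heat shock (-0.14) and 5 for floral organ identity (0.44). Some had a lower median with no member past the threshold. The 20 flavonoid and anthocyanin genes had a median of -0.41 and 19 of them differences below 0, the 14 aliphatic glucosinolate genes -0.42, with BCAT4, the first enzyme of methionine chain elongation, at -0.85 (adjusted p = 0.0523), the 13 indole glucosinolate genes -0.24, and the 14 rapid stress and touch genes -0.33. The 14 seed maturation genes had a median of -2.08, with no call, and these are the genes that stood high on wild-type replicate 1. Of 10 root markers, PRP3, a proline-rich protein of root hair walls, was called higher (difference 1.18 ± 0.22, adjusted p = 0.0358), and this call was lost without any 1 of 6 arrays, the 4 compared and the 2 of sdg8 sdg26 (up to 0.178). The summed level of the root markers was 1.78 and 1.74 on the sdg8 arrays and 1.66 and 1.47 on the wild-type arrays.

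**Figure D4:**
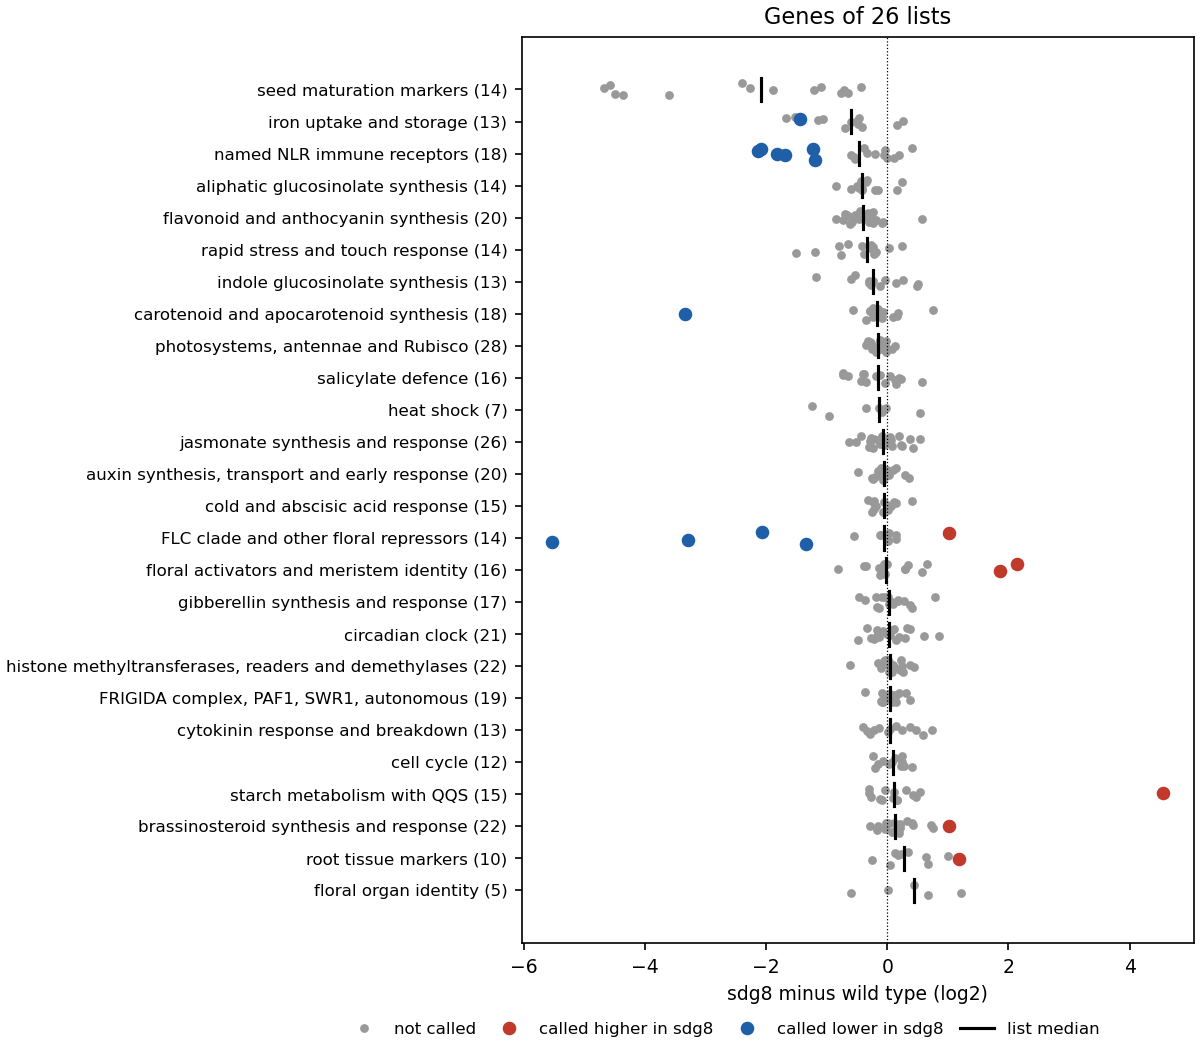
Difference between sdg8 and wild type (log2) for each tested gene of 26 lists, 1 point per gene, sorted by the list median (black bar), with the number of tested genes in brackets. The NLR list shows 6 blue points for called falls, the floral repressors 4 falls and 1 rise, and the seed maturation genes lie low, with a median of -2.08, without a call.

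Beyond the lists, 33 genes with a symbol of their own kept their call without any 1 array, and the following were taken from them after their values were seen. Lower in sdg8 were MKK5, a mitogen-activated protein kinase kinase of defence signalling, at -3.24 and -3.41 in sdg8 against -1.40 and -1.24 in wild type (4.01-fold), SUC5, a sucrose transporter (4.52-fold), ALF5, a transporter of the multidrug efflux class (3.43-fold), MOT1, a molybdate transporter (3.09-fold), HA6, a plasma membrane proton pump (2.93-fold), XRCC4, which acts in the joining of broken DNA ends (2.87-fold), CAT5, a carrier of cationic amino acids (2.55-fold), and CPK27, a calcium-dependent protein kinase (2.23-fold). Higher in sdg8 were ZIP7, of a family of zinc and iron transporters, at -3.18 and -3.27 in sdg8 against -4.36 and -4.62 in wild type (2.41-fold), and RSL1, a regulator of root hair development that was at least 2.64-fold higher.

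Some genes called lower lay next to each other. Of the 453, 67 (14.8%) had a called-lower gene directly beside them, on either side, in the order of tested genes on the chromosome, against 4.59% of all tested genes. They formed 29 pairs and 3 runs of 3. Of the 184 genes called higher, 12 (6.52%) had a called-higher gene on either side, against 1.89% of all tested genes, and all 12 lay in pairs. Some neighbours were alike in size of change and others were not. AT4G19865 and AT4G19870 differed by -4.60 and -4.17, AT3G26922 and AT3G26930 by -3.71 and -3.59, AT5G05040 and AT5G05060 by -3.28 and -3.19, and AT5G56370 and AT5G56380 by -3.29 and -3.45. AT4G19865, AT3G26922 and AT3G26930 were not clear of background on either sdg8 array, and only the bounds given above hold for them. AT4G19870 and AT5G56380 were not well above background on all 4 arrays. Likeness in size cannot be judged for pairs that hold any of these genes. Pairs of named genes were CRTISO with AT1G06830 (-3.34 and -0.91), MAF4 with MAF5, CPK31 with CPK27 (-0.87 and -1.16), CYP71B35 with CYP71B36 (-0.90 and -2.48) and CYP71B5 with CYP71B30P (-1.04 and -1.23). The calls of 4 further genes in these pairs held without any 1 array, those of AT4G19870, AT5G05060, AT5G56370 and AT5G56380. AT1G06830 lost its call without either wild-type array or sdg8 replicate 2 (adjusted p up to 0.0849), and CPK31 without any 1 of 6 arrays, the 4 compared and the 2 of sdg26 (up to 0.156).

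The runs of 3 were AT1G23950, AT1G23960 and AT1G23970 (-1.08, -1.57 and -1.87), AT1G61280, AT1G61300 and AT1G61310 (-0.87, -0.77 and -1.08), and EARLI1, a gene of a lipid-transfer-like protein, with AT4G12490 and AT4G12500 (-1.15, -1.61 and -1.16). In the last run the direction then turned. The next called genes, AT4G12510 and AT4G12530, were higher by 1.66 and 2.59, and AT4G12510 was at -1.26 and -1.36 in sdg8 against -2.96 and -2.97 in wild type. AT4G12530 was not well above background on either wild-type array, so the size of its rise was not measured. In all, 7 pairs of neighbours were called in opposite directions. Near-identical neighbours can share probe signal, and how far that bears on these pairs was not tested. The calls of AT1G23960 and AT1G23970 held without any 1 array. AT1G23950 lost its call without sdg8 replicate 2 (adjusted p = 0.0551), the run of AT1G61280 without either sdg8 array or wild-type replicate 2 (up to 0.199, with AT1G61300 lost also without wild-type replicate 1 or either sdg26 array), and the run of EARLI1 without either wild-type array or sdg8 replicate 2 (up to 0.218, with AT4G12490 and AT4G12500 lost also without sdg8 replicate 1). AT4G12510 lost its call without sdg8 replicate 1 or wild-type replicate 2 (up to 0.0584), and AT4G12530 without either wild-type array (up to 0.0637).

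The same mutation could be read on separate arrays, by setting the 2 sdg8 sdg26 arrays against the 2 sdg26 arrays, all on 1 slide. In that comparison 480 of the 19341 genes were called (2.48%), and this count was 148 without sdg26 replicate 1, 129 without sdg26 replicate 2, 276 without sdg8 sdg26 replicate 1 and 168 without sdg8 sdg26 replicate 2. Of the 184 genes called higher in sdg8, 168 (91.3%) were also higher in sdg8 sdg26 than in sdg26, and of the 453 called lower, 428 (94.5%) were also lower. Among all tested genes 69.1% had the same direction. The sdg8 sdg26 pair lay wholly beyond the sdg26 pair in the same direction for 87.3% of the called genes and 36.5% of all genes. In the common fit 296 genes were called the same way in both comparisons, 46.5% of the sdg8 calls and 61.7% of the calls in the sdg26 background. The fit shares 1 estimate of spread between the comparisons, and with the sdg8 sdg26 and sdg26 arrays fitted alone the number was 170.

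Over the genes called higher in sdg8, the median difference was 0.75 in the sdg26 background against 1.19 in sdg8. For those called lower it was -0.84 against -1.11. These genes were chosen by their calls in sdg8, and such a choice by itself makes differences on other arrays smaller. The medians therefore do not compare the strength of the sdg8 effect between the 2 backgrounds. FLC differed by -5.37 in the sdg26 background, FLM by -3.23, SDG8 by -2.39, CRTISO by -4.33, RPM1 by -1.72 and AT4G10600 by -3.19. QQS differed by 5.87, AT3G28899 by 6.50, AT3G61030 by 6.58 and FT by 2.48. Some genes called in sdg8 were not called in the sdg26 background, and for none of the 4 that follow was the gap between the 2 sdg8 effects called (adjusted p of the gap 0.117 to 0.393). MAF5 differed by 0.07 ± 0.16 (adjusted p = 0.897), with levels of -3.58 and -3.36 in sdg8 sdg26 against -3.49 and -3.59 in sdg26, where the gene was already low. IRT1 differed by 0.70 (adjusted p = 0.104), AT5G37280 by -0.18 and ZIP7 by -0.09. The flavonoid list had a median of 0.04 there, against -0.41 in sdg8, and the seed maturation list 1.04, against -2.08.

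A test of the difference between the 2 sdg8 effects called 1 gene of 19341 (0.00517%), MRD1. In sdg8 MRD1 had levels of -3.39 and -3.37, against -0.52 and -0.41 in wild type. In sdg8 sdg26 it had -3.14 and -3.54, against -4.47 and -4.19 in sdg26. MRD1 was thus low in all 3 mutants, and the sdg8 difference was -2.91 in wild type and 0.99 in the sdg26 background, a gap of -3.90 ± 0.24 (adjusted p = 0.00868). The call of this gap was lost without sdg8 replicate 1 (adjusted p = 0.0643) and without wild-type replicate 2 (adjusted p = 0.069). AT3G26800 was the only other gene called in opposite directions. It was at -4.76 and -5.23 in sdg8 against -7.59 and -7.39 in wild type, and at -8.77 and -8.92 in sdg8 sdg26 against -6.40 and -7.30 in sdg26. The gap of 4.49 was not called (adjusted p = 0.0758). Its levels in wild type, in sdg8 sdg26 and on sdg26 replicate 2 lay below the weakest signal called well above background on those arrays. Neither its differences nor the gap are therefore measured sizes.

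**Figure D5:**
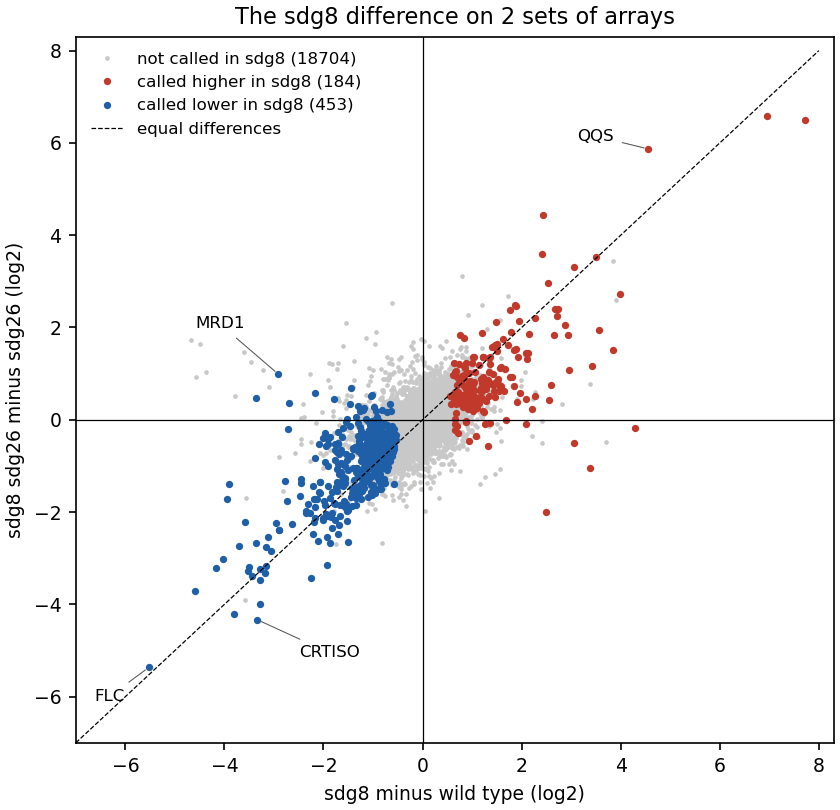
Difference between sdg8 and wild type (log2, horizontal axis) against that between sdg8 sdg26 and sdg26 (log2, vertical axis) for 19341 genes, with genes called higher in sdg8 in red and lower in blue and the dashed line marking equal differences. Most called genes lie in the lower left and upper right parts of the plot, 94.5% of the falls and 91.3% of the rises, and MRD1 lies apart at -2.91 and 0.99.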

How the data were processed

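RNA of aboveground seedling tissue at 6 days of age was hybridised to Agilent 1-colour arrays, per the labels' protocols. The authors deposited scanner files of spot intensity made with Agilent Feature Extraction (the file headers give version 11.5.1.1, the submitters' processing notes 9.1), in which the processed signal intensity is already background-subtracted. They also deposited a table of log2 values, which differed from the values used here by a constant of -0.0103 to -0.0067 per array (SD about 4e-07). Its scale, centring and direction were settled by that comparison, the sources used here do not name the software behind it, and its column medians were -2.37 and -2.32 for sdg8, -2.33 and -2.33 for wild type, -2.30 and -2.31 for sdg8 sdg26 and -2.30 and -2.29 for sdg26 (replicates 1 and 2).

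Each array's log2 processed signal was reduced by the 75th percentile of its 43803 non-control spots. Spots marked as outliers (23 to 92 per array) were set to missing, and 0 were saturated. Of 43603 probes, 31655 passed the filter on background and 26703 of these had a locus. Of 36098 probes with a RefSeq accession, 34285 (95.0%) matched the TAIR10.1 gene table, which was used for names and neighbour order only. Where several probes of a gene were kept, the one with the highest mean signal stood for it. Of 19343 genes, 2 without any value in some genotype were dropped, and 109 of the rest had a missing value. Among called genes, 111 had 128 other probes, 5 of opposite sign.

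Differences were tested two-sided with limma 3.58.1 (R 4.3.3), lmFit and eBayes over all 8 arrays with genotype as the factor (4 residual and 3.44 prior degrees of freedom), adjusted over all genes. The median SE was 0.162, and 0.229 for the difference between the 2 sdg8 effects. On simulated data with 200 of 19232 genes changed, 53.2%, 86.3% and 98.6% were recovered at log2 changes of 1, 2 and 3, with 4 false calls. The simulated noise was independent between arrays and held no slide effect. These figures therefore do not cover false calls from slide or from technical replicates. Depth has no counterpart on arrays, so the number of arrays limits the precision. The series text speaks of 2 experiments with 3 sets of RNA per genotype but ties no set to an array. Whether the 2 arrays of a genotype hold separate plantings is therefore unknown, and p-values measure the spread between these samples, which may be technical.

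Named genes were SDG8, SDG26, FLC, FT and SOC1, the 12 largest measured changes and 8 largest bounds in each direction, up to 4 members of each list or family with the smallest p, runs of 3 or more called neighbours, and genes whose sdg8 effects differed. The 26 lists held 462 entries after 11 whose symbol the gene table does not hold were dropped, and families were matched on words in symbols and synonyms. The comparison and the lists were chosen with earlier results of these data known. Alternatives covered the filter, the scaling, the background correction, slide and replicate number as blocks, the arrays in the fit, and each array left out.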

Additional observations from a re-analysis of the deposited data

Results flagged for a closer look

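MRD1 stood out because the effect of the sdg8 mutation on it differed between the 2 backgrounds by a test of that difference. The sdg8 effect in wild type minus that in sdg26 was -3.90 on the log2 scale (SE 0.24, adjusted p = 0.00868), and MRD1 was low in sdg8, sdg8 sdg26 and sdg26 alike. The call was lost with no filter on dim probes (adjusted p = 0.122), with the replicate block (0.0545), with normexp on the local background (0.984), without sdg8 replicate 1 (0.0643) and without wild-type replicate 2 (0.069). The cause was not tested.

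Probes that match no locus in the gene table were outside the comparison. In the same fit among themselves, 232 of 4950 such kept probes were called between sdg8 and wild type, 75 higher and 157 lower in sdg8. They are not named here, and what they detect was not tested.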

How the results depend on the processing

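The number of genes called in sdg8 against wild type, 637, was 379 with only the 4 arrays compared, 222 with no filter on dim probes, 329 with normexp on the median background of an array, 0 with normexp on the local background (563 at an unadjusted p below 0.05) and 162 at an adjusted p below 0.01. It was 188 to 553 with 1 array left out. Falls outnumbered rises in all of these but the one with 0 calls. It stayed within 1.5 times under quantile scaling (568), the authors' log2 table (608), slide as a random block (526), the mean of a gene's probes (656) and the other 2 filters (473 and 565). The slide block could not separate slide from genotype, since no slide held both sdg8 and wild type. The 480 calls of sdg8 sdg26 against sdg26 became 213 in a fit of those 4 arrays and 129 to 276 with 1 of them left out. Correlations of replicate deviations ran from 0.18 to 0.43 among wild type, sdg8 and sdg26. Between each of these genotypes and sdg8 sdg26 they ran from -0.45 to -0.16. Whether the replicate numbers pair the samples is not settled by these values. The replicate block gave 470 calls in sdg8 and 336 in the sdg26 background. In a check added after the data were seen, the 1 call for a difference between the sdg8 effects became 0 with no filter, with normexp on the local background and with the replicate block, 3 with normexp on the median background, and 0 to 3 with 1 array left out.

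Of 88 single-gene results, 87 kept direction and call under quantile scaling, 85 with slide as a random block and 73 with no filter. With normexp on the median background of an array 77 did so, and with normexp on the local background only 8. The limit of the slide block given above holds for these results too. Normexp on the local background shifted the median of all genes to -0.11 and turned 8 rises to falls, TRFL3 (-0.15), AT3G26800 (-0.47), AT4G12530 (-0.45), AT4G12735 (-0.10), AGO9 (-0.54), AT5G37280 (-0.0063), RSL1 (-0.51) and AGL42 (-0.81). AGL42 was well above background on 1 wild-type array and the other 7 on neither. The cause was not tested. Dim genes are limited by signal over background, where the share of probes clear of it was 71.9% to 74.9%.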

Other observations

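Larger gene families were matched on words in symbols and synonyms, and their calls in sdg8 against wild type are given here, where 0.951% of all tested genes were called higher and 2.34% lower. MADS-box genes held 1 higher and 4 lower of 30 tested, the 4 of the FLC clade and AGL42 described above. Glutathione transferases held 1 higher and 2 lower of 40, WRKY factors 1 and 1 of 48, MYB factors 1 and 1 of 96, and proteins of unknown function 1 and 1 of 25. UDP-glycosyltransferases (48 tested), AP2/ERF factors (40) and bHLH factors (29) held 1 higher and 0 lower, and receptor-like kinases (85), lectin kinases (32) and zinc finger proteins (53) 0 higher and 1 lower. No matched member was called among 105 pentatricopeptide repeat proteins, 67 ribosomal proteins, 58 SAUR proteins, 35 RING and U-box proteins and 26 F-box proteins. The median difference of the ribosomal proteins was -0.20 and that of the cytochrome P450 genes was also -0.20. Few genes carry such words in this table, so these counts do not cover whole families.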
